A study of Rattus norvegicus with 24 samples.

Results

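Lungs of rats that inhaled silica with no other exposure were compared with lungs of rats that breathed filtered air by the same routes. The comparison took the arrays whose title codes name air given nose-only and silica given to the whole body, 4 rats (numbers 501, 502, 503 and 504), and those that name air by both routes, 4 rats (numbers 102, 103, 104 and 105), out of 24 arrays in the series. Each gene was read from the brightest of its probe sets that carry 1 symbol, which gave 14217 genes. The series crossed air or cigarette smoke, given nose-only, with air, Iraqi sand or silica, given in a chamber, in 6 groups of 4 male CD Sprague-Dawley rats, an outbred laboratory strain. Its title names the combined effects of smoke and inhaled sand, and the groups compared here hold the silica arm without smoke.

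Both groups compared were restrained for nose-only air on 5 days of each week, 3 hours at a time, during 5 weeks by the protocol or 6 weeks by the text of the series. In the chamber they then received either air or manufactured silica sand at a set level of 1 mg per cubic metre. That exposure ran 18 hours daily without a free day and lasted 2 weeks. All rats are labelled 17 weeks old, and the right caudal lobe of the lung was kept for RNA. The text of the series describes 17 rats per group, of which 4 per group were analysed here. Each array held 1 rat, so errors refer to the spread between animals, and precision is limited by the number of arrays. The rats of the other groups enter the shared estimate of the spread and are otherwise used below only to set the silica result beside them.

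Inhaled crystalline silica is taken up by alveolar macrophages, the phagocytes that clear the air spaces. Particles that rupture their lysosomes can activate the inflammasome, and chemokines released by macrophages and epithelium call neutrophils into the lung. Long exposure leads to silicosis, in which fibroblasts lay down collagen. The lung also has a circadian clock, a loop in which the activators Bmal1 and Clock or Npas2 drive their own repressors, and Bhlhe40 and Bhlhe41 (also called Dec1 and Dec2) are repressors that bind the E-box, the DNA element the activators use.

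The promoters of 4 genes are shown because the results turn on Bhlhe40 and Cxcl1, and Bhlhe41 and Cxcl2 belong to the same families. Sequences are RefSeq's for build GRCr8, from 250 bases before to 50 bases after the gene's start, on the strand of the gene and 5′ to 3′. Capitals mark the E-box CACGTG in the first 2 and an NF-kappaB motif, GGG, any 3 bases, then TTCC on either strand, in the others, where neighbouring matches run together.
Bhlhe40: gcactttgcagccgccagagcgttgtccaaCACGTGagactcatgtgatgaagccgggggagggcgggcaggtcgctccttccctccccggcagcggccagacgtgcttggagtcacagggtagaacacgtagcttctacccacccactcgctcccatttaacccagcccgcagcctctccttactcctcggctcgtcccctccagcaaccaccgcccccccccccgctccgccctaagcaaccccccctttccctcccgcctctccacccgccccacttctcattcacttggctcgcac
Bhlhe41: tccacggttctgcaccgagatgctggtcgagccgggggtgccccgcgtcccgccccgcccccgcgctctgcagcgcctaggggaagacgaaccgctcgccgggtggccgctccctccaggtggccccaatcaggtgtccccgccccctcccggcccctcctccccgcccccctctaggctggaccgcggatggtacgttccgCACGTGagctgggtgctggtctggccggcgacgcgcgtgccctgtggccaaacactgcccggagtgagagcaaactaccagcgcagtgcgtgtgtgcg
Cxcl1: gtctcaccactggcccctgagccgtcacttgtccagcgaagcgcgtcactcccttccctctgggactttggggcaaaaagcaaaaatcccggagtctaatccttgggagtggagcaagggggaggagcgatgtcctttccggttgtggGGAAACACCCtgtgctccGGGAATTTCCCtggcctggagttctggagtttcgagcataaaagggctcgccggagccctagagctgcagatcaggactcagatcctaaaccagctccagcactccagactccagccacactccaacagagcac
Cxcl2: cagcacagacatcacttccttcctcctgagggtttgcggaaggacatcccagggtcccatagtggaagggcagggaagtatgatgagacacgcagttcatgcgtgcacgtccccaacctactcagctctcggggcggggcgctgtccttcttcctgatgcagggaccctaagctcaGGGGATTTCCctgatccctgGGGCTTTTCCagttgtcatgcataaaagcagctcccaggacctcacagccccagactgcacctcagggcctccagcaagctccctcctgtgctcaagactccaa
Bhlhe40 lies at chr4:143174200-143174499 on the plus strand, and the others lie on the minus strand, Bhlhe41 at chr4:180569306-180569605, Cxcl1 at chr14:17479272-17479571 and Cxcl2 at chr14:17467206-17467505. The E-box begins 220 bases before the start in Bhlhe40 and 48 bases before it in Bhlhe41. The NF-kappaB motif matched 3 times in Cxcl1, the matches on the 2 strands overlapping in part, and 2 times in Cxcl2.

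These motifs were searched on both strands of every promoter in the table. The E-box stood in 6.65% of the promoters of 27457 symbols, and in 1 of the 15 genes that rose under silica and have a promoter in the table, which was Bhlhe40. Of 18 clock genes with a promoter, 3 held it, Bhlhe40, Bhlhe41 and Tef. The D-box TTANGTAA, bound by Dbp, Tef, Hlf and Nfil3, stood in 2.19% of all promoters and in 1 clock gene, Per2, and the letters AGGTCA, the core that ROR and REV-ERB receptors bind, in 15.7% of all promoters, in 3 clock genes and in 2 of the 15. The NF-kappaB motif, searched after the values were seen, stood in 5.36% of all promoters, in 5 of 14 CXC genes with a promoter (Cxcl1, Cxcl2, Cxcl6, Cxcl10 and Cxcl11), in 0 of 18 clock genes and in 1 of the 15, Cxcl1. A looser form, GGG, any 5 bases, then CC, stood in 48.5% of all promoters, in 11 of the 15, in 13 clock genes and in 9 CXC genes. Among the 11733 measured genes with a promoter the shares were 8.92% for the E-box, 1.36% for the D-box, 12.7% for AGGTCA, 6.35% for the NF-kappaB motif and 63.8% for its looser form. A match says only that the letters are there.

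One control array stood apart. Rat 104 had transcripts of heart muscle, and the airway protein Bpifa1 (11.77 against 6.93 to 7.03), far above its group mates: the atrial myosin light chain Myl7 read 12.04 in rat 104 and 6.82, 7.58 and 5.68 in rats 102, 103 and 105, and 22 of 29 markers of heart and striated muscle stood 2-fold or more above its mates. In the silica rats Myl7 read 7.82, 8.58, 6.70 and 4.91. Its mean correlation with the other arrays was 0.982, against 0.988 to 0.990 in the other 7 rats compared. Rat 302, which breathed air and Iraqi sand, enters only the shared estimate of the spread and the comparison with sand, and correlated at 0.944 with the other arrays. RNA integrity numbers, known for 3 rats of each group, were 9.3 to 9.4 with air and 9.1 to 9.2 with silica, so they did not overlap. The lung markers Sftpc and Scgb1a1 read 14.79 or more in all 8 rats.

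All values are RMA log2 levels, differences are silica minus air on that scale with their standard error (SE), and p-values are limma's with Benjamini-Hochberg adjustment over 14217 genes. With silica alone 20 genes rose and 0 fell at an adjusted p under 0.05, which is 0.141% of the genes tested. In all 20 every silica rat lay above every air rat, as in 3.24% of all genes, but the 20 were chosen on these same rats, which favours groups apart. At an unadjusted p under 0.05, 394 genes were higher (2.77%) and 317 lower (2.23%). The median difference of all genes was -0.01, and 46.5% were above 0. In RNA of a whole lobe, more cells of a type and more RNA per cell cannot be told apart. The 20 were led by a clock repressor, a neutrophil chemokine, a cyclin and a complement component, and none belonged to the inflammasome, matrix, cell cycle or interferon lists.

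**Figure D1:**
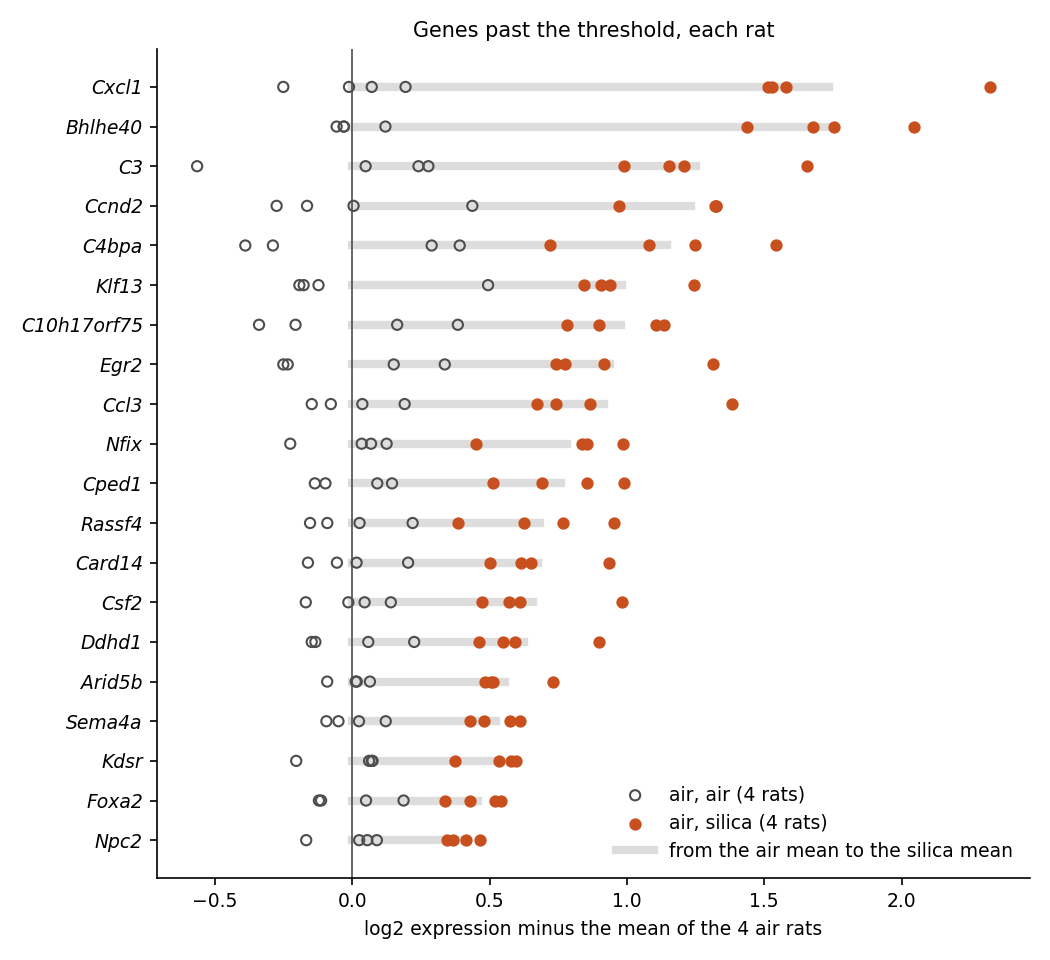
Log2 expression of the 20 genes that rose, as each rat's value minus the mean of the 4 air rats (horizontal axis), with open circles for air rats, filled circles for silica rats and a grey bar from 1 group mean to the other. No filled circle lies to the left of an open one in its row, and the mean differences run from 0.40 in Npc2 to 1.74 in Cxcl1.

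Without rat 302 in the shared fit 38 genes rose and 4 fell, Klf2, Klhl14, Mbp and Rab14, and all 20 were among those that rose. Without rats 104 and 302 together 22 rose, 16 of them among the 20. Of the rats compared, leaving out rat 105 or rat 501 left 8 genes, leaving out rat 104 left 9, and leaving out rat 503 left 10. Leaving out any of the other 4 gave 15 to 20 genes, of which 15 or 16 were among the 20. Arid5b, Bhlhe40, C10h17orf75, C3, Ccnd2 and Cxcl1 kept their call in all 8 of these fits, and for the other 14 the rats whose removal ended the call are named beside the gene. When only the 8 arrays compared were fitted, Bhlhe40 and Cxcl1 passed. On the 19 arrays with an RNA integrity number no gene passed, with that number as a covariate (381 genes at an unadjusted p under 0.05) or without it (366). In the fit with the covariate the 20 genes were all above 0, with a median of 0.77, the same as in the fit of 24 arrays. That fit keeps 3 rats of each group on which the 20 were chosen, so their sign and size there are no separate evidence.

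Bhlhe40 had the smallest p. It read 7.23, 7.23, 7.21 and 7.39 in air rats 102, 103, 104 and 105, and 9.31, 8.94, 9.02 and 8.70 in silica rats 501, 502, 503 and 504. The air rats lay close together and the lowest silica rat stood more than 1 log2 unit above the highest of them. The rise was 1.73 ± 0.20 (SE), or 3.32-fold (adjusted p = 2.15e-04), and it was the only member of the 21 measured clock genes that passed.

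Other genes of the clock moved less and did not pass. Its relative Bhlhe41 differed by 0.53 ± 0.15 (adjusted p = 0.394), the nuclear receptor Rora, which drives Bmal1, by 0.73 ± 0.21 (0.406) and the repressor Per2 by 0.56 ± 0.22 (0.830). The activators differed the other way, Npas2 by -0.76 ± 0.30 (0.876) and Bmal1 by -0.67 ± 0.28 (0.898), and so did the repressor Nfil3 by -0.36 ± 0.14. Rora was 6.32 to 7.00 in air rats and 7.20 to 7.45 in silica rats, with no overlap, whereas Bmal1 spread from 6.76 to 8.63 in air rats and from 6.84 to 7.51 in silica rats. Within the air group Bmal1 was lowest in rat 104 (6.76) and highest in rat 103 (8.63), and Dbp, an output of the clock, was highest in rat 104 (10.44) and lowest in rat 103 (8.17). The labels do not give the hour at which each lung was taken, and its part in these genes was not tested. At an unadjusted p under 0.05, 4 clock genes were higher (2.77% of all genes were) and 3 lower (2.23%). The median of the list was 0.05, with 11 of 21 above 0 (46.5% of all genes were). Without rat 104 the median was 0.20, 14 were above 0, and 6 were higher and 3 lower at that p. In that fit 6766 of all 14217 genes were above 0, and 351 were higher and 177 lower at that p.

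Another 5 of the genes that rose encode DNA-binding regulators of transcription. Arid5b, an AT-rich DNA-binding cofactor, read 7.40, 7.35, 7.35 and 7.24 in air rats and 7.85, 7.82, 7.84 and 8.07 in silica rats. The groups were narrow and apart, and the rise was 0.56 ± 0.08 (adjusted p = 0.0067). That error and p-value rest on the spread shared by all groups of the series. When only the arrays compared were fitted, Arid5b had an adjusted p of 0.0587 in limma and did not pass. Klf13, a zinc finger factor of the Krueppel-like family, rose by 0.98 ± 0.19 (adjusted p = 0.0252), with 7.33, 7.999, 7.38 and 7.31 in air rats and 8.35, 8.44, 8.41 and 8.75 in silica rats. Leaving out any 1 of rats 102, 104, 105, 501, 502, 503 and 504 ended its call (highest adjusted p 0.143), and air rat 103 was the nearest to the silica rats. Other members of its family differed in the opposite direction without passing, Klf2 by -0.71 ± 0.18 and Klf4 by -0.40 ± 0.10 (adjusted p = 0.199 and 0.218), each with every silica rat below every air rat, as in 2.95% of all genes. Klf2 is a flow-responsive factor of endothelium, and it passed when rat 302 was left out of the fit (adjusted p = 0.0369).

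The immediate early factor Egr2 rose by 0.94 ± 0.16, or 1.91-fold (adjusted p = 0.0126). It read 7.21, 7.78, 7.59 and 7.19 in air rats and 8.75, 8.36, 8.18 and 8.22 in silica rats. The lowest silica rat stood above the highest air rat, but leaving out rat 102, 105 or 501 took the call away (highest adjusted p 0.0708). Egr2 was the only 1 of 27 immediate early genes to pass. Egr1 differed by -0.01 ± 0.36 and Fos by -0.06 ± 0.42, and both spread widely among air rats, Fos from 8.37 to 10.45.

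Nfix, a nuclear factor I family member, rose by 0.78 ± 0.14 (adjusted p = 0.0161) and was 7.52 to 7.87 in air rats and 8.20 to 8.74 in silica rats. With rat 104, 105, 502, 503 or 504 left out it no longer passed (highest adjusted p 0.0871). Foxa2, a forkhead factor of lung epithelium, rose by 0.46 ± 0.08 (0.0174), from 9.94 to 10.25 in air rats to 10.40 to 10.60 in silica rats, and its call ended without rat 103, 104, 501 or 503 (up to 0.104). Both groups were apart in both genes.

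Among the chemokines, which draw leukocytes into tissue, Cxcl1 rose most. This ligand of the neutrophil receptor Cxcr2 read 8.54, 8.66, 8.21 and 8.45 in air rats and 10.79, 10.04, 9.98 and 9.99 in silica rats. Rat 501 was the highest by far, and the other silica rats lay together more than 1 log2 unit above every air rat. The rise was 1.74 ± 0.26, or 3.33-fold (adjusted p = 0.0067). Another 4 of the 16 measured CXC genes had all silica rats above all air rats, as 3.24% of all genes did, without passing: Cxcl2 (0.73 ± 0.26), Cxcl3 (0.45 ± 0.14) and Cxcl6 (0.48 ± 0.13), which are ligands of the same receptor, and the receptor Cxcr1 (0.76 ± 0.22), with adjusted p from 0.219 to 0.687. Cxcl2, whose promoter is shown above, read 5.97, 5.97, 5.86 and 6.19 in air rats and 6.92, 6.78, 6.73 and 6.47 in silica rats. The other 11 CXC genes, which hold the lymphocyte attractants Cxcl9, Cxcl10, Cxcl11 and Cxcl13, all overlapped. The median of the list was 0.04, with 8 of 16 above 0 (46.5% of all genes were). Without rat 104 the median was 0.17, with 10 of 16 above 0 (6766 of all 14217 genes were).

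Ccl3, a macrophage chemokine, rose by 0.92 ± 0.16 (adjusted p = 0.0126). It read 7.95, 8.07, 8.22 and 7.88 in air rats and 9.41, 8.71, 8.78 and 8.90 in silica rats. Here too rat 501 was highest and the groups were apart; without rat 105 or rat 501 the call ended (up to 0.0708). It was the only 1 of 19 CC genes to pass. The monocyte attractant Ccl2 read 5.92, 6.89, 7.11 and 7.05 in air rats and 8.11, 7.53, 8.05 and 7.82 in silica rats, apart but with a wide spread over the series (1.14 ± 0.60, adjusted p = 0.999).

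Csf2, the growth factor GM-CSF that alveolar macrophages need, rose by 0.66 ± 0.12 (adjusted p = 0.0148), from 7.34 to 7.65 in air rats to 7.98 to 8.49 in silica rats. A dimmer probe set of Csf2 differed by 0.06 ± 0.10 (unadjusted p = 0.589), so the rise was seen in 1 of 2 probe sets. The call ended without rat 104, 105 or 501 (up to 0.0904). Card14, a scaffold protein that can activate NF-kappaB, rose by 0.68 ± 0.12 (0.0161), was 7.54 to 7.90 in air rats and 8.20 to 8.63 in silica rats, and lost its call without the same 3 rats (up to 0.0986).

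Of the 28 measured genes of the NF-kappaB and TNF list Csf2 alone passed, and the median was -0.06 (-0.01 without rat 104). Tnf differed by 0.20 ± 0.11, Il6 by -0.12 and Nfkbia, the inhibitor that NF-kappaB induces, by -0.27 ± 0.14. The nuclear regulator Nfkbiz differed by 0.71 ± 0.21 (adjusted p = 0.394) with the groups apart, 8.70 to 8.94 against 9.38 to 9.71, and it passed when rat 302 was left out of the fit (0.0087).

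The inflammasome is the complex that silica activates in macrophages. Genes of the list of the inflammasome and the interleukin-1 family lay near the median of all genes. That list holds cytokines and receptors of the family beside parts of the complex. None of 18 measured genes of the list passed, 0 had an unadjusted p under 0.05 (the background was 5% of all genes), and the median was -0.01. Il1b read 8.57, 8.73, 8.60 and 9.65 in air rats and 8.26, 8.70, 8.40 and 8.38 in silica rats, a difference of -0.45 ± 0.36. Il18 differed by 0.20 ± 0.29, and the adaptor Pycard by -0.15 ± 0.15. These arrays measure transcripts, and the cleavage that activates the protein products is not seen here; the sensor Nlrp3 was not analysed here.

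C3, the central component of complement, rose by 1.25 ± 0.20, or 2.38-fold (adjusted p = 0.00746). It read 11.70, 10.89, 11.51 and 11.73 in air rats and 13.11, 12.61, 12.67 and 12.45 in silica rats. The groups were apart, with air rat 103 the lowest and silica rat 501 the highest. C4bpa, the alpha chain of the C4b-binding protein that inhibits complement, rose by 1.15 ± 0.20 (0.0161), with 9.74, 9.64, 8.96 and 9.06 in air rats and 10.89, 10.43, 10.60 and 10.07 in silica rats. Its call ended without rat 104, 105, 501 or 503 (up to 0.0963). C3 was the only 1 of the 16 measured genes of the complement list to pass, and C4bpa is not on that list; factor D (Cfd, -0.65 ± 0.30) and properdin (Cfp, -0.19 ± 0.09) differed the other way with overlapping groups.

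Ccnd2, cyclin D2, which acts in the G1 phase of the cell cycle, rose by 1.23 ± 0.19, or 2.35-fold (adjusted p = 0.0067). It read 9.52, 10.12, 9.68 and 9.40 in air rats and 11.01, 10.65, 11.00 and 11.00 in silica rats. The silica rats were close together except for rat 502, which was the lowest and still above every air rat. No other member passed of 14 D-type cyclins, their kinases and inhibitors, where Ccnd1 differed by 0.12 ± 0.13 and Ccnd3 by -0.10 ± 0.10. Of 38 cell cycle genes, 30 were above 0 (46.5% of all genes were), 0 passed and 0 had an unadjusted p under 0.05.

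Lysosomal genes lay above the median of all genes as a group, although Npc2 alone passed. Npc2, which hands cholesterol out of the lysosome, rose by 0.40 ± 0.08 (adjusted p = 0.0371), from 12.95, 13.18, 13.15 and 13.21 in air rats to 13.49, 13.54, 13.59 and 13.47 in silica rats. Its call was the least stable, ending without any 1 of the 8 rats (up to 0.211). Of 30 measured lysosome genes 25 were above 0 (46.5% of all genes were), 11 were higher at an unadjusted p under 0.05 (2.77% of all genes) and 0 lower (2.23%), and the median was 0.17. The protease legumain (Lgmn) differed by 0.33 ± 0.08 and cathepsin D (Ctsd) by 0.41 ± 0.10 (adjusted p = 0.116 and 0.199), and both had their groups apart. The transcription factors that drive lysosome genes, Tfeb (-0.01) and Tfe3 (-0.05), were near 0. Their relatives on the list were higher without passing, Mitf by 0.28 ± 0.24 with overlap and Tfec by 0.77 ± 0.27 (adjusted p = 0.688) with the groups apart.

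Markers of alveolar macrophages were the highest of the 37 lists by their median, 0.33. None of 21 passed, 20 were above 0, and 9 were higher and 0 lower at an unadjusted p under 0.05, against 46.5%, 2.77% and 2.23% of all genes. Gpnmb, Ctsd, Ctsk and Mcoln2 are also on the lysosome list, so the macrophage and lysosome counts are not separate. Lgals3, galectin-3, came closest (0.45 ± 0.10, adjusted p = 0.0942), reading 12.74, 12.52, 12.69 and 12.59 in air rats and 13.37, 12.95, 13.08 and 12.92 in silica rats. Gpnmb, a glycoprotein of lipid-laden macrophages, differed by 0.67 ± 0.19 and Cd68 by 0.60 ± 0.19, and the elastase Mmp12 by 1.06 ± 0.48 (adjusted p = 0.394, 0.526 and 0.972). The mean of the list was 9.19, 9.22, 9.45 and 9.24 in air rats and 9.85, 9.50, 9.63 and 9.54 in silica rats, so the lowest silica rat stood just above air rat 104. Without rat 104 the median was 0.41 and 10 of 21 were higher at an unadjusted p under 0.05. In that fit 351 of all 14217 genes were higher at that p, and the median of all genes was -0.006.

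**Figure D2:**
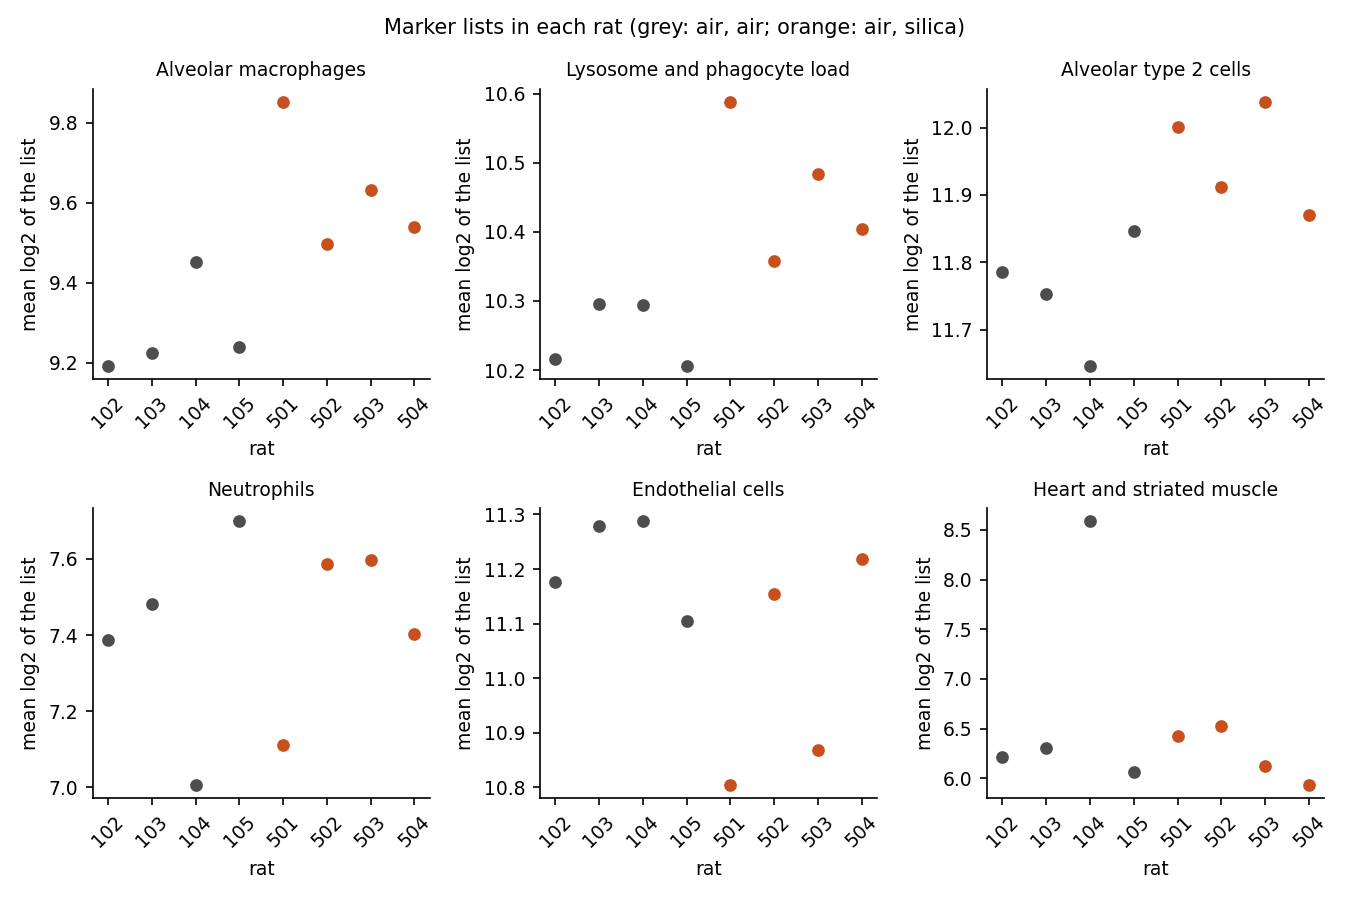
Mean log2 level of 6 marker lists in each rat of the groups compared (rats on the horizontal axis, grey for air and orange for silica), each panel with its own vertical scale. The macrophage, lysosome and alveolar type 2 lists were higher in every silica rat than in every air rat, the neutrophil and endothelial lists overlapped, and rat 104 stood alone in heart muscle at 8.59. The macrophage and lysosome lists share Gpnmb, Ctsd, Ctsk and Mcoln2.

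Neutrophil markers as a list did not separate the groups. None of 11 measured passed, 3 were above 0 (46.5% of all genes were), and the median was -0.25. The mean of the list, however, was 7.01 to 7.70 in air rats and 7.11 to 7.60 in silica rats, with group averages of 7.39 and 7.42. S100a8 read 9.73, 9.73, 9.67 and 10.56 in air rats and 8.33, 9.45, 9.52 and 9.22 in silica rats, all lower (-0.79 ± 0.42, adjusted p = 0.999), and S100a9 differed by -0.41 ± 0.41. The receptor Cxcr1, also on this list, differed the other way by 0.76 ± 0.22 (adjusted p = 0.420), with the groups apart. Lipocalin 2 (Lcn2), made by neutrophils and by airway epithelium, was 6.20 in rat 104, 10.27 to 11.48 in the other air rats and 9.17 to 13.49 in silica rats, with overlap. It differed by 2.31 without passing. Silica rats 502, 503 and 504 were above every air rat, and rat 501 lay within the air range.

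The largest difference among the genes of macrophage polarization did not pass either. Retnla, a resistin-like secreted protein of alternatively activated macrophages and epithelium, differed by 2.56 ± 0.61 (adjusted p = 0.141). It read 9.58, 9.93, 9.37 and 11.17 in air rats and 13.67, 12.87, 12.97 and 10.79 in silica rats. In 3 silica rats it was above every air rat, and silica rat 504 lay within the air range. Arg1 (0.75 ± 0.21) and Arg2 (0.58 ± 0.15), which break down arginine, had their groups apart with adjusted p of 0.328 and 0.199, while Il10 differed by 0.02 and Nos2, the inducible nitric oxide synthase, by 0.06.

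Markers of alveolar type 2 cells, which make surfactant, had a median of 0.16, with 17 of 19 above 0 (46.5% of all genes), 4 higher at an unadjusted p under 0.05 (2.77%) and 0 passing. Napsin A (Napsa), a protease of surfactant protein processing, differed by 0.31 ± 0.07 (adjusted p = 0.128) with groups apart, 12.38 to 12.65 against 12.80 to 12.84. Surfactant protein C, Sftpc, close to the top of the scale, differed by 0.08 ± 0.04. Type 1 cells had a median of -0.01 and no member at an unadjusted p under 0.05.

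Genes of several other cell types lay lower, without any passing. Of all genes 46.5% were above 0. The medians were -0.30 for T and NK cells (1 of 25 above 0), -0.31 for smooth muscle (3 of 16), -0.20 for fibroblasts (1 of 19), -0.19 for endothelium (1 of 21) and -0.55 for heart muscle (3 of 29). Rat 104, an air rat, was the highest of the 8 in the fibroblast list at 10.52 and in the smooth muscle list at 9.09. Without it the medians were -0.26, -0.14, -0.15, -0.15 and 0.07, so the sign turned for heart muscle.

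Genes of the matrix, which a fibrotic lung makes in excess, lay below the median of all genes. Of 33 measured, 0 passed, 7 were above 0 (46.5% of all genes were), and the median was -0.20 (-0.10 without rat 104). Col1a1 read 9.57, 9.95, 10.64 and 9.43 in air rats and 9.07, 9.89, 9.80 and 9.74 in silica rats, and differed by -0.27 ± 0.40. Decorin (Dcn) differed by -0.68 ± 0.27 (adjusted p = 0.894), with rat 104 at 11.50 against 10.54 to 10.80 in its mates and 10.12 to 10.32 in silica rats. Fibronectin (Fn1) differed by 0.06 ± 0.28 and osteopontin (Spp1) by -0.12 ± 0.86.

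Genes of the NRF2 antioxidant response had a median of 0.12, and none passed. Of 26 measured, 21 were above 0 (46.5% of all genes were) and 4 were higher at an unadjusted p under 0.05 (2.77%). Heme oxygenase 1 (Hmox1) read 8.19, 8.55, 8.33 and 8.32 in air rats and 8.98, 9.27, 8.87 and 8.93 in silica rats, apart, at 0.67 ± 0.23 (adjusted p = 0.649). Nqo1 differed by 0.18. Antigen presentation by MHC class II had a median of 0.21, with 11 of 12 above 0, cholesterol synthesis 0.16, with 16 of 18, and interferon-stimulated genes -0.13, with 4 of 23. No gene of these 3 lists passed, and 46.5% of all genes were above 0.

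**Figure D3:**
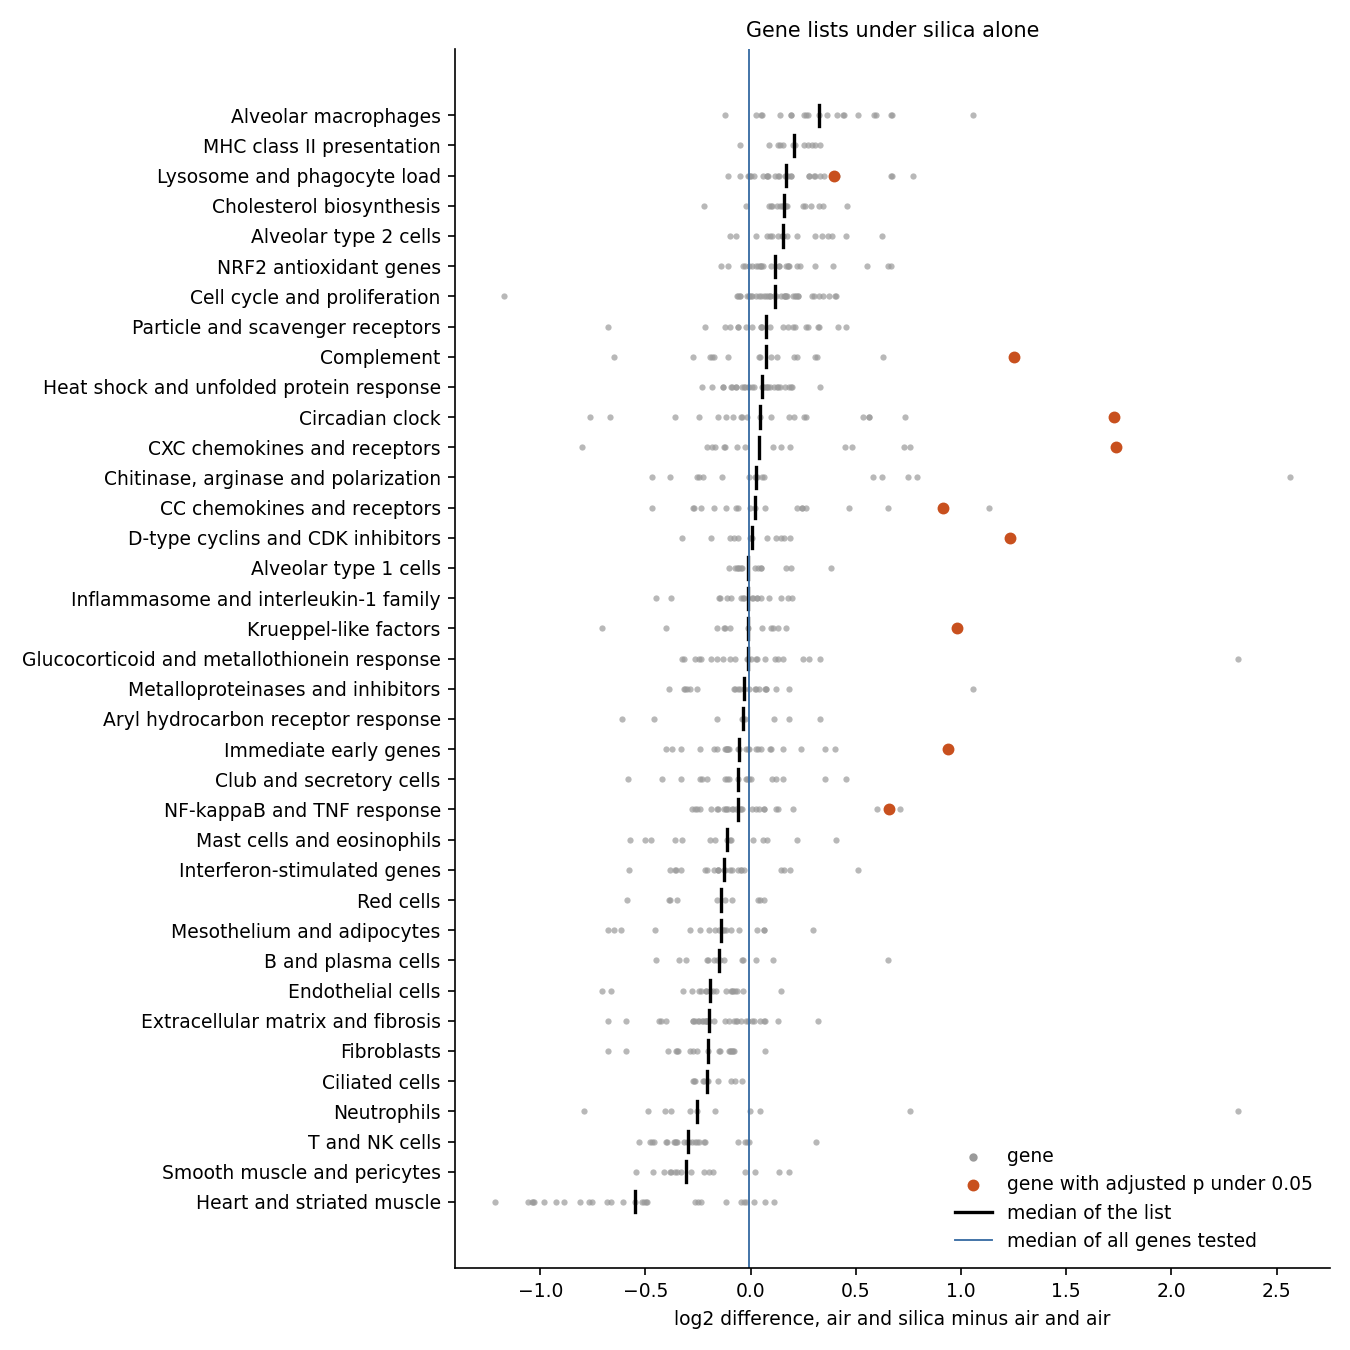
Log2 difference, silica minus air, of every measured gene of the 37 lists (small grey points), with genes at an adjusted p under 0.05 as large orange points, the list's median as a black tick and the median of all 14217 genes as a blue line. The medians run from -0.55 for heart muscle, which rat 104 carries, to 0.33 for alveolar macrophages, and no list has more than 1 gene past the threshold.

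The last 6 genes that rose are on none of the lists. C10h17orf75, an open reading frame, rose by 0.98 ± 0.15 (adjusted p = 0.00715), with 5.90, 6.41, 6.04 and 6.63 in air rats and 7.38, 7.14, 7.02 and 7.35 in silica rats. Cped1, which has cadherin-like and esterase domains, rose by 0.76 ± 0.13 (0.0126), from 8.36, 8.30, 8.11 and 8.08 to 8.72, 9.20, 9.07 and 8.90, and lost its call without rat 104, 105, 502 or 503 (up to 0.0708). Both had their groups apart. Sema4a, a semaphorin of immune cells, rose by 0.52 ± 0.09 (0.0126), and its call ended without rat 104, 501 or 503 (up to 0.0617). The Ras-association protein Rassf4 rose by 0.68 ± 0.13 (0.02), and its other 2 probe sets by 0.79 ± 0.16 and 0.87 ± 0.16, both past the threshold over 20826 probe sets. Its call in the gene fit ended without rat 102, 103, 105, 501 or 503 (up to 0.128). Both enzymes of lipid metabolism among the 20 were in this set, the phospholipase Ddhd1 with a rise of 0.62 ± 0.11 (0.0161) and Kdsr, of sphingolipid synthesis, with 0.52 ± 0.10 (0.0353). Ddhd1 lost its call without rat 104, 105, 501 or 503 (up to 0.0986), and Kdsr without any 1 of the rats other than 502 (up to 0.171).

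Another 12 genes had an adjusted p between 0.05 and 0.1, and all were higher with silica and had their groups apart. Every silica rat lay above every air rat in 3.24% of all genes. The 12 were chosen by p on these same rats, which favours groups apart, so this is no separate evidence. Among them were Veph1 (1.02 ± 0.21), the surfactant-associated Sfta2 (0.55 ± 0.11), the defensin Defb4 (0.33 ± 0.07) and Lgals3. Over probe sets in place of genes, 40 of 20826 rose and 2 fell. Of the 20 genes, 4 have other probe sets, and all 5 of these were above 0, with Egr2's at 0.41 ± 0.10 and Nfix's at 0.16 ± 0.08 (unadjusted p = 6.67e-04 and 0.0668).

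Silica was also given to rats that inhaled smoke, and these 8 rats share no animal with the comparison above. Smoke with silica against smoke with air gave 2 genes that rose and 0 that fell (0.0141%), Cped1 by 1.08 ± 0.13 (adjusted p = 6.19e-04) and Arid5b by 0.59 ± 0.08 (0.00537), and both are among the 20. Without rat 302 in the shared fit 34 genes rose and 32 fell. Cped1 and Arid5b kept the call when each of these 8 rats was left out. In Cped1 the smoke and silica rats read 9.02, 8.92, 8.59 and 8.59 and the smoke and air rats 7.79, 7.69, 7.78 and 7.52. In Arid5b they read 8.03, 7.74, 7.94 and 7.89 against 7.29, 7.25, 7.29 and 7.43. Rats with smoke and air overlapped the air rats in Arid5b and lay below them in Cped1, and in both genes the rats with smoke and silica overlapped those with silica alone.

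Of the 20 genes, 18 were above 0 in the smoke rats (46.3% of all genes were), 10 were higher at an unadjusted p under 0.05 (3.68%), and in 7 every rat with silica lay above every rat without it (4.29%). Their median difference was 0.31, against 0.77 with silica alone, where the genes were chosen. Ccnd2 differed by 0.80 ± 0.19, Nfix by 0.66 ± 0.14, Bhlhe40 by 0.59 ± 0.20 and Klf13 by 0.49 ± 0.19 (adjusted p from 0.141 to 0.493). For C3 (-0.09 ± 0.20), Card14 (-0.07 ± 0.12), Csf2 (0.01 ± 0.12), Rassf4 (0.03 ± 0.13), Npc2 (0.04 ± 0.08) and Cxcl1 (0.05 ± 0.26) the difference was within its error.

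In these 6 genes the smoke and air rats overlapped the rats with silica alone or, in Card14, lay above them. Cxcl1 was 10.35 to 10.73 in smoke and air rats and 10.30 to 11.09 in smoke and silica rats, against 9.98 to 10.79 with silica alone. C3 was 12.77 to 12.98 with smoke and air and 12.16 to 13.23 with smoke and silica. The range of silica alone, 12.45 to 13.11, overlapped both. C10h17orf75 also differed in smoke rats by less than its error, at 6.09 to 6.66 with smoke and air and 6.43 to 6.74 with smoke and silica. In that gene both smoke groups lay below every rat with silica alone (7.02 to 7.38). Whether the silica difference differs between air and smoke rats was tested as an interaction, which uses the same silica and air rats that chose the genes. No gene passed (adjusted p of 0.9997 or more), and 318 of 14217 had an unadjusted p under 0.05 (2.24%). Of the 20 genes 18 were below 0 (51.3% of all genes were), the side on which their choice puts them, C3 at -1.35 ± 0.28, Cxcl1 at -1.69 ± 0.37 and Bhlhe40 at -1.14 ± 0.28 (unadjusted p = 1.02e-04, 1.79e-04 and 4.93e-04). For Arid5b the silica difference was 0.03 ± 0.12 larger in smoke rats than in air rats, and for Nfix the value was -0.12 ± 0.20.

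**Figure D4:**
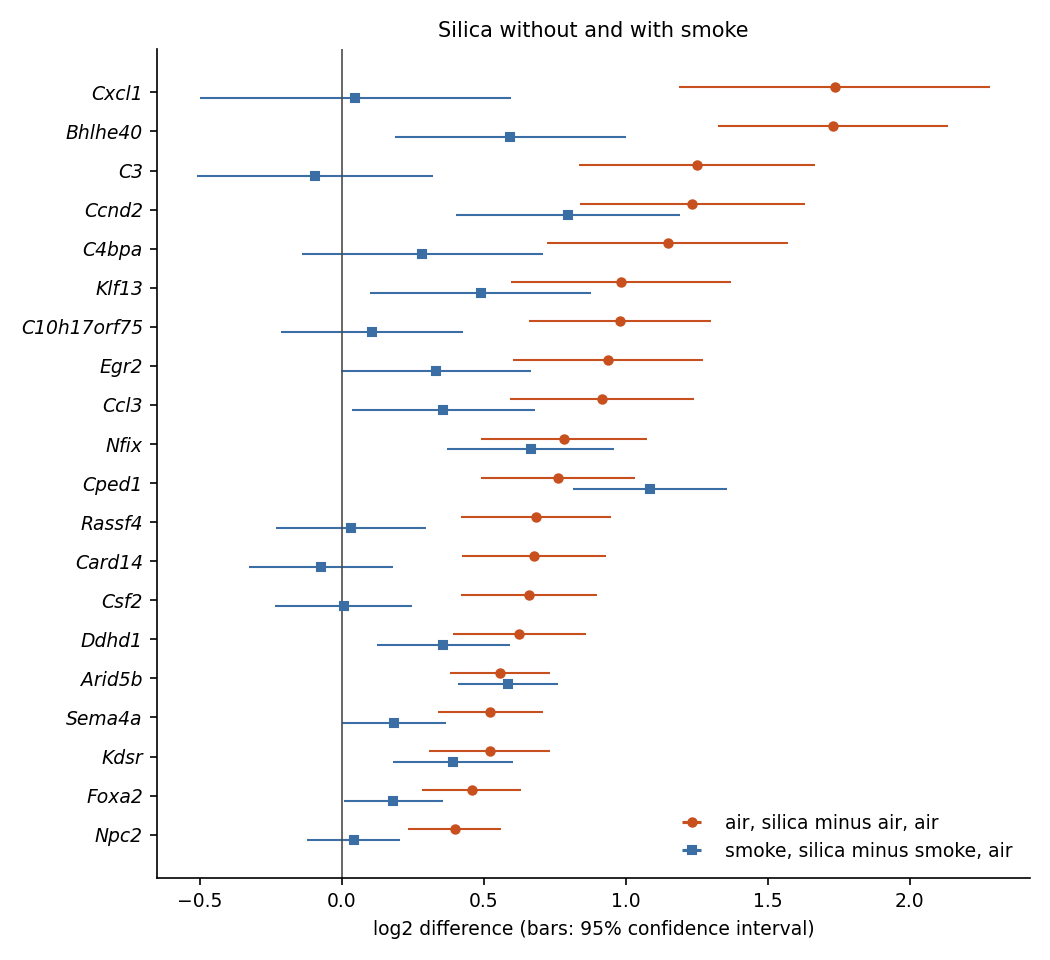
Log2 differences of the 20 genes, silica minus no silica, in rats without smoke (circles) and with smoke (squares), with 95% confidence intervals from the fit of 24 arrays. The genes were chosen on the circles, and among the squares Cped1 and Arid5b alone passed the threshold over all genes.

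The other particle, Iraqi sand, was given at the same set concentration and over the same time, and its rats were compared directly with the silica rats, which are the rats that chose the 20 genes. Sand was lower than silica in 38 genes (0.267% of those tested) and higher in 1, Matn2 (0.00703%), which makes 0.274% in both directions. Matn2 kept its call in 2 of 8 fits with 1 rat left out, losing it without rat 301, 302, 304, 501, 503 or 504 (up to 0.161). Among the 38 were 7 of the 20: Ccnd2 (-2.06 ± 0.19, adjusted p = 6.13e-06), Klf13 (-1.33 ± 0.19), Cped1 (-1.18 ± 0.13), Bhlhe40 (-0.95 ± 0.20), C10h17orf75 (-0.79 ± 0.15), Nfix (-0.73 ± 0.14) and Arid5b (-0.52 ± 0.08). Arid5b, Ccnd2, Cped1 and Klf13 kept this call when each rat of these groups was left out. Bhlhe40 lost it without rat 301, 305, 501, 502 or 503 (up to 0.138), C10h17orf75 without rat 301, 302, 501, 502 or 504 (up to 0.0923) and Nfix without rat 304, 305, 502, 503 or 504 (up to 0.0957).

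Ccnd2 showed the widest gap between the particles. It was 8.34 to 9.15 in sand rats, 9.40 to 10.12 in air rats and 10.65 to 11.01 in silica rats, 3 ranges that did not overlap. Cped1 was likewise lowest with sand (7.42 to 7.998), then air (8.08 to 8.36), then silica (8.72 to 9.20). Arid5b was 7.26 to 7.59 with sand, which overlapped the air rats. Rora was lower with sand than with silica by -1.33 ± 0.21 (adjusted p = 0.00501), kept when each rat was left out, and read 5.40 to 6.41 in sand rats. Cxcl1 was 8.61 to 9.68 in sand rats, below every silica rat, and differed by -1.09 ± 0.26 (95% interval -1.64 to -0.54) without passing (adjusted p = 0.101). C3 (-0.27 ± 0.20, 95% interval -0.69 to 0.14), Csf2 (-0.15 ± 0.12, -0.39 to 0.09) and Card14 (0.09 ± 0.12, -0.16 to 0.34) did not pass between the particles either, and their intervals include 0. Sand rats lay above every air rat in C3 (12.05 to 12.60) and Bhlhe40 (7.45 to 8.48), and so did rats with smoke and air in Bhlhe40 (8.14 to 8.33). Among smoke rats, those with sand lay above those with air in Arid5b (7.58 to 7.84 against 7.25 to 7.43) and Cped1 (8.34 to 8.67 against 7.52 to 7.79). In Ccnd2 they overlapped (9.67 to 10.70 against 9.38 to 9.76). The difference between sand and air in smoke rats was not tested.

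**Figure D5:**
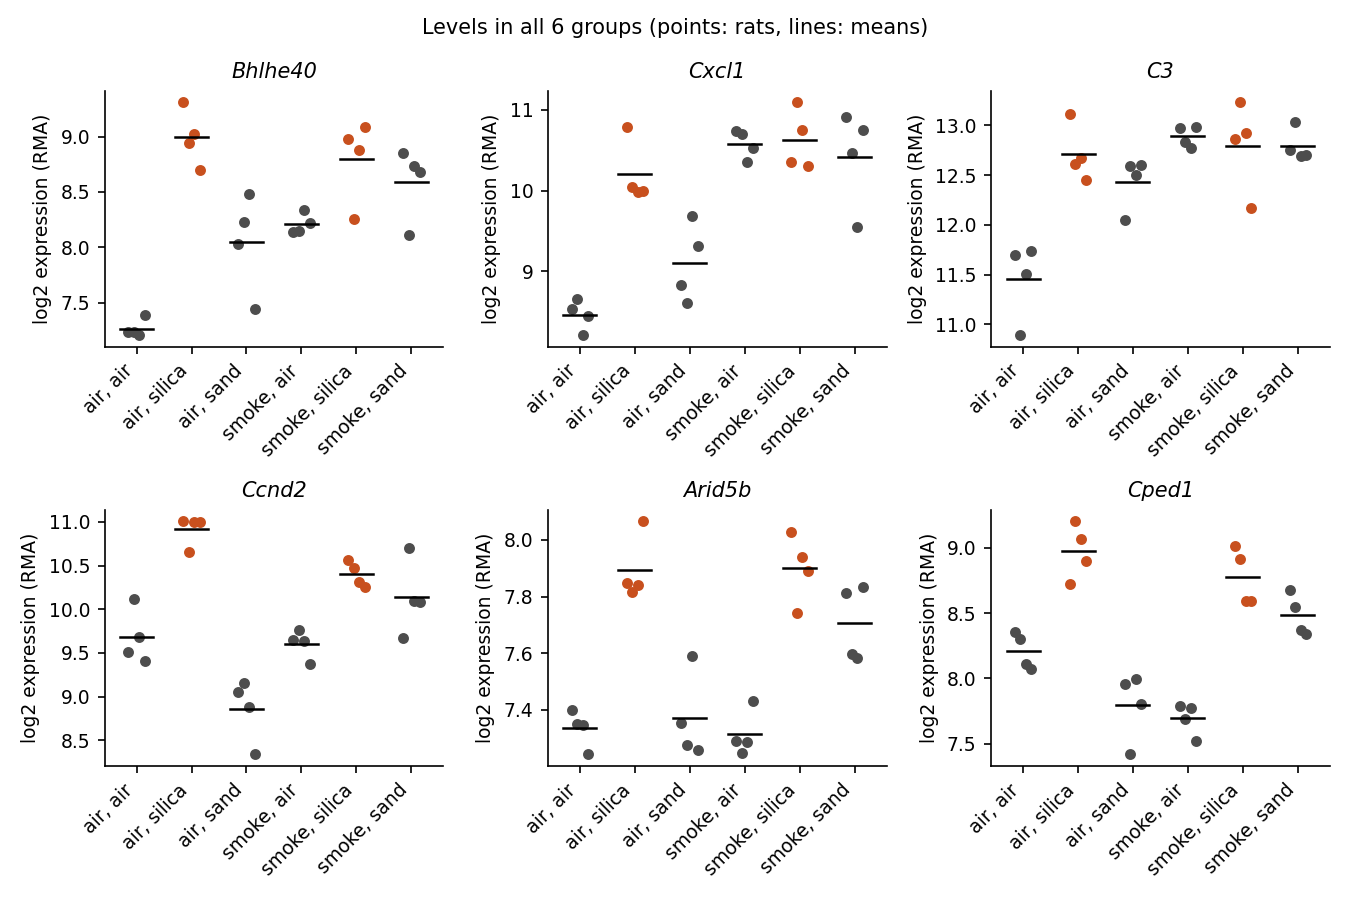
Log2 expression of 6 of the 20 genes in all 6 groups, 1 point per rat and a line at each mean, with the groups that received silica in orange and each panel on its own vertical scale. Ccnd2, Arid5b and Cped1 are high in both silica groups and lower in both groups without particles, with smoke and sand rats between or overlapping, while Cxcl1 and C3 are as high in smoke and air rats as in silica rats.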

How the data were processed

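Lung RNA of 24 rats was measured on 1 Affymetrix array each, and groups and rat numbers come from the sample labels. The authors deposited log2 expression values made with RMA per the submitters' processing notes, with the version not given in the sources used here; RMA sets all arrays to 1 distribution and compresses changes of dim probe sets. Of 31099 probe sets, 57 controls were left out; 20826 had 1 symbol, 436 several and 9780 none, and the brightest per gene gave 14217 genes, of which 4525 had further probe sets. For 14167 the Entrez number was found in the RefSeq table of GRCr8, and 0 symbols changed.

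The 24 arrays entered 1 model of 6 group means in limma 3.58.1 (R 4.3.3), through lmFit and eBayes. It left 18 residual degrees of freedom, and the residual standard deviation had a median of 0.153. All tests were two-sided, p-values were adjusted by Benjamini and Hochberg over all genes within a comparison, and dim genes were not filtered. The fit was tested on simulated data. Comparisons were silica against air without and with smoke, their interaction, and sand against silica without smoke. Alternatives were other variance priors, dim genes left out, probe set means, a fold minimum, the compared arrays only, array weights, other centring, RNA integrity as a covariate, and rats left out. Those chosen after seeing the data were the same 19 arrays without the covariate, rats 104 and 302 left out together, list values without rat 104, and the NF-kappaB motifs.

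Named by rule were the 15 largest rises past the threshold with groups apart, up to 4 members of each list by moderated t, and a set of genes always given. So were the largest differences past the threshold between sand and silica. Arid5b, Sema4a, Foxa2 and Kdsr, the 12 genes just outside the threshold and further list members were named after their values were seen. The members and the 37 lists (848 entries, 737 measured) were chosen with earlier results of these data known.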

Additional observations from a re-analysis of the deposited data

Results flagged for a closer look

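Each value here set 1 rat apart from its 3 group mates by more than chance usually does, by Dixon's test. The 32 values come from 382 groups of 4 rats, 2 groups for each gene named, and chance sets apart about 5% of groups. Of them 12 lie in air rat 104, 7 in rat 103, 4 in rat 105 and 3 in rat 102, and 6 in silica rats.

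Among the genes that rose, silica rat 501 stood high in Cxcl1, at 10.79 against 9.98 to 10.04 in its mates, and silica rat 504 in Arid5b, at 8.07 against 7.82 to 7.85. Silica rat 502 stood low in Ccnd2, at 10.65 against 11.00 to 11.01. Air rat 103 stood high in Klf13, at 7.999 against 7.31 to 7.38, air rat 105 in Bhlhe40, at 7.39 against 7.21 to 7.23, and air rat 104 stood low in Kdsr, at 7.50 against 7.76 to 7.78. In Klf13 and Bhlhe40 the high air rat was the one nearest to the silica rats, and all silica rats were still above it.

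In rat 104 the heart genes Ryr2 (7.95 against 5.18 to 5.41), Pln (8.22 against 6.30 to 6.59) and Ckm (7.38 against 5.74 to 5.80) stood high. So did Bpifa1 of the airway (11.77 against 6.93 to 7.03), Pck1 of adipose tissue (7.65 against 4.91 to 5.14), Acta2 of smooth muscle (9.70 against 9.28 to 9.34), Adamts5 (7.92 against 6.97 to 7.10), Tgfb1 (9.04 against 8.68 to 8.70) and Slc39a14 (8.25 against 7.91 to 7.96). It was low in surfactant protein D, Sftpd (12.86 against 13.27 to 13.33), and in Cxcl3 (12.95 against 13.57 to 13.65).

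Rat 103 stood low in the mitotic kinase Aurkb, at 6.79 against 9.06 to 9.28, and high in Sdf2l1 (9.58), Cyp51 (9.26), Cd74 (13.41), Abcg1 (10.92) and Pkib (7.81). Rat 105 stood high in Il1b (9.65), S100a8 (10.56) and Gsr (8.46). Rat 102 stood high in Mertk (8.36) and Cyp4b1 (12.85) and low in Ctsd (12.25). Silica rat 503 stood low in Nfkbia (11.42) and high in Itgax (9.69), and silica rat 501 low in Lpgat1 (8.03).

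Sand and silica differed from each other in the fit for the 11 genes given next, and also for Veph1 (-1.28), Ston2 (-1.13) and Fam185a (-0.74). C11h21orf91, LOC100912031 and Matn2 were named because they were among the largest differences of this same comparison. Sand minus silica was -0.52 for Arid5b, -0.95 for Bhlhe40, -0.79 for C10h17orf75, -1.37 for C11h21orf91, -2.06 for Ccnd2 and -1.18 for Cped1. It was -1.33 for Klf13, -1.47 for LOC100912031, 0.47 for Matn2, -0.73 for Nfix and -1.33 for Rora.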

How the results depend on the processing

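The count of 20 genes with silica alone ranged from 8 to 20 when each compared rat was left out. It was 2 on the 8 arrays compared, 80 with array weights (65 higher, 15 lower), 0 on 19 arrays with the RNA integrity covariate and 0 without it, 42 without rat 302, and 31 without rats 104, 302 and 604 (28 higher and 3 lower, Fkbp7, Klf4 and Mbp). With trend and robust shrinkage it was 21, all higher, and in the other settings 15 to 22, all higher. None of the named genes reversed with a call on either side, and 23 of 171 named genes that did not pass did so in some setting. The 2 genes of silica under smoke became 5 with probe set means (4 higher, 1 lower), 9 on their own arrays (7 and 2), 342 with array weights (142 and 200), 0 on 19 arrays with or without the covariate, 66 without rat 302 (34 and 32), 14 without the 3 rats (10 and 4), and 2 to 3 with each rat left out. The interaction had 0 genes in every setting but 1 gene, which was lower, without the 3 rats. The 39 genes of sand against silica became 19 among the brighter genes, 6 on their own arrays, 82 with array weights (25 higher, 57 lower), 2 with the covariate, 10 on the same 19 arrays without it, and 25 to 54 with each rat left out. The cause of these changes was not tested, except that fewer arrays entered some fits. No paired analysis was possible because each rat has its own number and no number is shared between groups.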
